A study of Mus musculus with 12 samples.

Results

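The microRNA (miRNA) machinery examined here comprised 10 genes chosen by name from the 33250 gene symbols of the table. They were Drosha and Dgcr8, Dicer1, the Argonaute genes Ago1, Ago2, Ago3 and Ago4, and the TNRC6 genes Tnrc6a, Tnrc6b and Tnrc6c. They were measured in bulk hippocampus of 12 male mice, 6 with a conditional knockout (cKO) of the miRNA cluster from Mir379 to Mir410 and 6 wild type (WT). In cKO mice, Cre acts in Emx1-positive cells, which in the forebrain are mainly excitatory neurons and glia of the cortex and hippocampus. Cells without Cre keep the cluster, so each library mixes cells with and without it. The sources used here give neither age, strain nor the deleted bases. The question put to these genes was whether the machinery that makes and uses miRNAs differs once a large miRNA cluster is lost, for example by compensation.

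In the nucleus, the Microprocessor of Drosha and Dgcr8 crops hairpins out of long primary transcripts, and after export Dicer1 cuts the hairpin to a short duplex. An Argonaute protein keeps 1 strand of the duplex as its guide and finds messages that pair with the seed, bases 2 to 8 of the miRNA. TNRC6 proteins, the relatives of fly GW182, bind Argonaute and bring in deadenylases, so that the target message is translated less and decays. The libraries were made from polyA RNA and report the messages of these genes, neither mature miRNAs nor protein.

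All 10 genes passed the filter on low counts, and library totals ran from 42360624 to 51095816 counts. The excitatory neuron marker Slc17a7 was at 1373 to 1491 CPM (counts scaled to a common library total with TMM factors) in cKO and 1305 to 1559 CPM in WT, and Prox1, a marker of dentate granule cells, at 81.0 to 129 CPM in cKO and 99.4 to 135 CPM in WT. The library labelled cKO 1 went against its label at B830012L14Rik, a non-coding transcript upstream of the cluster. It had 0.788 CPM there, while cKO 2 to 6 had 17.4 to 25.8 CPM and WT libraries 0.310 to 0.865 CPM, so the lower genes are also given without it.

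No gene of the machinery passed the test between genotypes. With edgeR's quasi-likelihood test, 0 of the 10 had an adjusted p under 0.05, where 0.0103% of the 19325 genes tested did. DESeq2, which called 0.393% of genes, and limma-voom, which called 0%, also called 0 of the 10. At an unadjusted p under 0.05 stood 3 of the 10, against 9.54% of all genes. All 3, Ago3, Tnrc6b and Dicer1, were lower in cKO, against 6.34% of all genes lower and 3.2% higher. The same 3 were lower at that level with DESeq2 and with limma-voom, against 6.31% of all genes with either tool. Without the library labelled cKO 1, edgeR called 0 of the 10 and 0.0308% of all genes, and the same 3 were lower at an unadjusted p under 0.05, against 8.96%. Of the 10 log2 fold changes 9 were below 0, against 46.6% of all genes, with a median of -0.04 where the median of all genes was 0.01. The median of the 10 was -0.06 without cKO 2, without cKO 3, without WT 1 or without WT 4. None of the 10 had groups of libraries that did not overlap, where 0.404% of all genes did, or every cKO library below every WT library, where 0.223% did. The highest upper bound of a 95% interval was 6.49% above WT, at Tnrc6a, and 3 intervals lay wholly below 0. In bulk tissue, fewer cells of a type and less RNA per cell cannot be told apart.

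**Figure D1:**
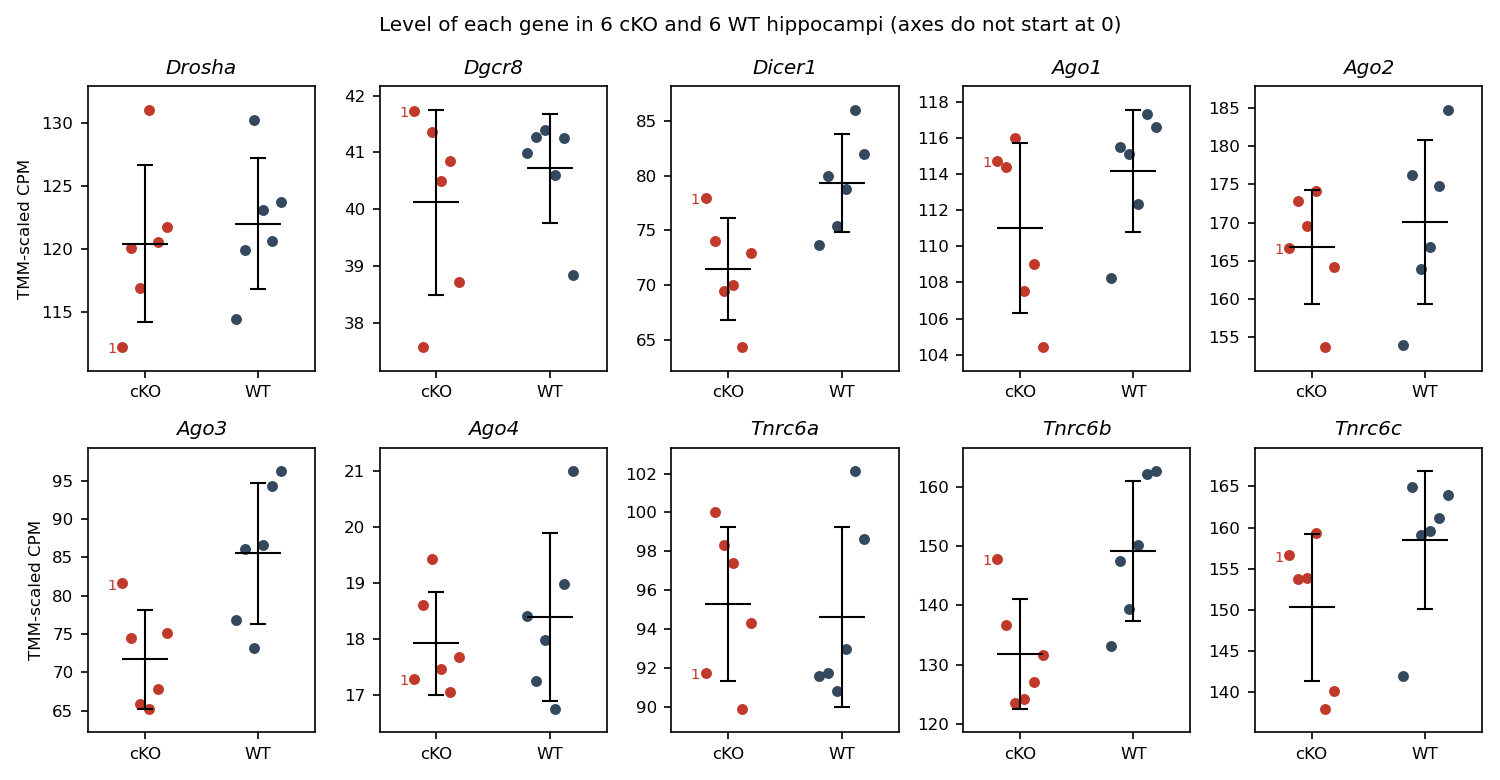
Level of each of the 10 genes in every library, in TMM-scaled CPM, cKO left of WT, with bars for the mean and SD of 6 libraries and a small 1 beside the library labelled cKO 1. The axes do not start at 0. The groups overlap in every panel, and for Ago3, Dicer1 and Tnrc6b the library labelled cKO 1 is the highest of the cKO points.

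Both subunits of the Microprocessor lay close together in the genotypes. Drosha, the RNase III enzyme of the complex (chromosome 15, 12824815 to 12935291, plus strand, GRCm38, 35 exons), had a lowest, median and highest level of 112, 120 and 131 CPM in cKO, against 114, 122 and 130 CPM in WT. The libraries overlapped almost completely. The log2 fold change was -0.02 ± 0.04 (SE), with an edgeR adjusted p of 0.918, and its 95% interval ran from -6.85% to 4.58%.

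Dgcr8, the RNA-binding partner that stabilises Drosha (chromosome 16, 18253948 to 18289246, minus strand), had 37.6, 40.7 and 41.7 CPM in cKO, against 38.8, 41.1 and 41.4 CPM in WT. It varied little across WT libraries, with a coefficient of variation of 2.36%, where the median of 10339 genes with at least 10 CPM was 5.58%. Across cKO libraries the coefficient of variation of Dgcr8 was 4.07%. The log2 fold change was -0.02 ± 0.03 (SE; edgeR adjusted p = 0.885). Per kilobase of longest transcript, the ratio of Drosha to Dgcr8 was 2.84 ± 0.209 in cKO and 2.83 ± 0.143 in WT (SD, n = 6 each), and per kilobase of coding sequence 1.69 ± 0.124 in cKO and 1.69 ± 0.085 in WT. Dgcr8 overlaps Trmt2a on the opposite strand and Gm49776 on the same strand. Of its 31-base words 16.9% occur in other genes, with 10.2% in Trmt2a, so part of its count could belong to other genes.

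Dicer1, the RNase III enzyme that releases the miRNA duplex, had 64.3, 71.5 and 78.0 CPM in cKO, against 73.7, 79.4 and 86.0 CPM in WT. The gene occupies chromosome 12, 104687742 to 104751952, minus strand. Of the cKO libraries 4 lay below the lowest WT library, and 4 WT libraries lay above the highest cKO library. The means were 71.4 ± 4.66 CPM in cKO and 79.3 ± 4.47 CPM in WT (SD, n = 6 each). The log2 fold change was -0.15 ± 0.05 (SE), or -9.93% with a 95% interval from -16.1% to -3.25%, and it did not pass (edgeR adjusted p = 0.363). It was -0.19 without cKO 1.

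Among the Argonautes, Ago3 had the widest gap between genotypes. The 6 cKO libraries, in the order of their numbers, read 81.6, 74.5, 65.8, 65.2, 67.9 and 75.2 CPM, and the 6 WT libraries 76.8, 86.1, 73.1, 86.6, 94.4 and 96.3 CPM. Of the cKO libraries 3 lay below the lowest WT library, while cKO 1, the highest, exceeded 2 of the WT libraries. The means were 71.7 ± 6.47 CPM in cKO and 85.5 ± 9.21 CPM in WT (SD, n = 6 each). The log2 fold change was -0.25 ± 0.07 (SE), a difference of -16.2%, which did not pass (edgeR adjusted p = 0.353). It was -0.30 without cKO 1 (edgeR adjusted p = 0.0989).

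The other Argonautes differed less. Ago2, whose protein can slice a fully paired target, had 154, 168 and 174 CPM in cKO, against 154, 171 and 185 CPM in WT (log2 fold change -0.03 ± 0.04, SE; edgeR adjusted p = 0.891). Ago1 had 104, 112 and 116 CPM in cKO, against 108, 115 and 117 CPM in WT (-0.04 ± 0.03; edgeR adjusted p = 0.744). Ago4, the least abundant of the 10, had 17.1, 17.6 and 19.4 CPM in cKO, against 16.8, 18.2 and 21.0 CPM in WT (-0.04 ± 0.06; edgeR adjusted p = 0.885). In these 3 genes the cKO and WT libraries overlapped over most of their range. Ago2 also overlaps Chrac1 on the opposite strand. Of the 31-base words of Ago2, 7.27% occur in other genes, with the largest share, 4.49%, in Gm6088.

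Ago3, Ago1 and Ago4 are neighbours on the minus strand of chromosome 4, with 5455 bases between Ago3 (126331704 to 126429556) and Ago1 (126435012 to 126468583) and 20957 bases between Ago1 and Ago4 (126489541 to 126533472). Ago2 stands apart on chromosome 15 (73095844 to 73184935, minus strand). Of Ago1's 31-base words 1.72% occur in Ago3, so few exact words of that length are shared by this pair. How alike their coding sequences are was not measured. The neighbours did not share Ago3's difference in size, with log2 fold changes of -0.25, -0.04 and -0.04 for Ago3, Ago1 and Ago4; the differences between genes were not tested.

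In the TNRC6 family, Tnrc6b stood lower in most cKO libraries. Its cKO libraries, in the order of their numbers, read 148, 137, 123, 124, 127 and 132 CPM, and its WT libraries 133, 147, 139, 150, 162 and 163 CPM. Of the cKO libraries 4 lay below the lowest WT library, and cKO 1 was above 3 WT libraries. The means were 132 ± 9.27 CPM in cKO and 149 ± 11.9 CPM in WT (SD, n = 6 each). The log2 fold change was -0.18 ± 0.06 (SE), or -11.7% with a 95% interval from -18.9% to -3.83%, without passing (edgeR adjusted p = 0.363). It was -0.22 without cKO 1.

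Tnrc6c, the most abundant paralogue per length, had 138, 154 and 159 CPM in cKO, against 142, 160 and 165 CPM in WT, with a log2 fold change of -0.08 ± 0.05 (SE; edgeR adjusted p = 0.633). Without WT 1, the lowest WT library, it was -0.11 ± 0.04 (edgeR adjusted p = 0.233), with an edgeR unadjusted p of 0.0164. Tnrc6a had 89.9, 95.9 and 100.01 CPM in cKO, against 90.8, 92.3 and 102 CPM in WT. It was the one gene of the 10 with a value above 0, a log2 fold change of 0.01 ± 0.04 (SE; edgeR adjusted p = 0.960), and the sign turned when some single animals were left out. Tnrc6a, Tnrc6b and Tnrc6c lie on chromosomes 7, 15 and 11.

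**Figure D2:**
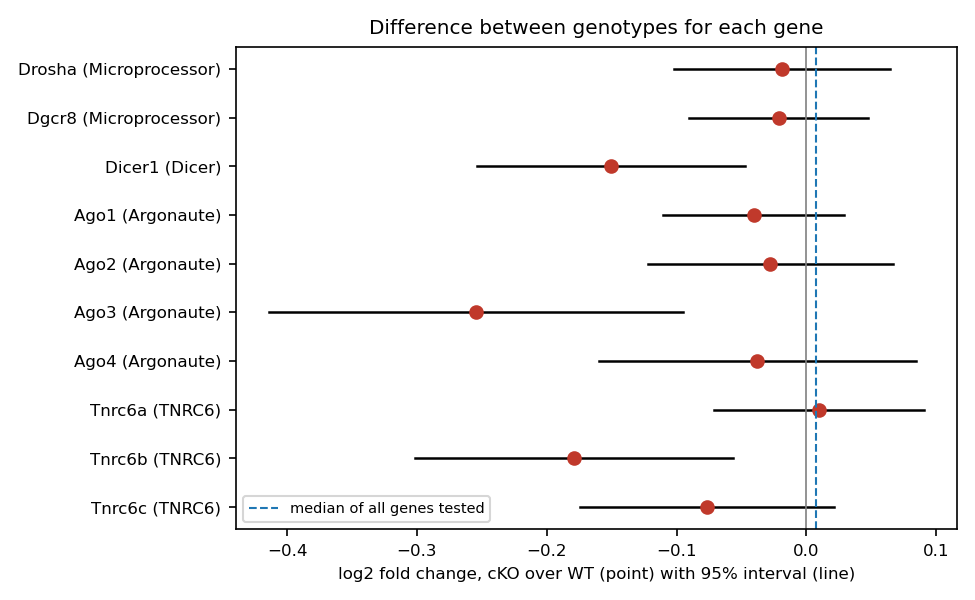
Log2 fold change, cKO over WT, of each of the 10 genes from edgeR, with its 95% interval (line) over all 12 libraries; the dashed line is the median of all genes tested. The intervals of Ago3, Tnrc6b and Dicer1 lie below 0, and those of the other 7 genes include 0.

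Levels of different genes were compared per kilobase of the longest annotated transcript, as CPM per kb. Drosha was highest, at 26.4 ± 1.37 in cKO and 26.7 ± 1.14 in WT (SD, n = 6 each), followed by Ago1 at 15.4 ± 0.649 in cKO and 15.8 ± 0.468 in WT. Tnrc6c had 13.0 ± 0.775 in cKO and 13.7 ± 0.727 in WT. Ago2 and Tnrc6a, next in order, swapped rank between libraries, with means of 12.1 and 11.6 CPM per kb in cKO. Dgcr8 and Tnrc6b also swapped rank, with 9.29 and 7.60 CPM per kb in cKO. Dicer1 had 7.25 ± 0.473 in cKO and 8.05 ± 0.454 in WT, Ago3 4.60 ± 0.415 in cKO and 5.49 ± 0.591 in WT, and Ago4, the lowest, 2.74 ± 0.140 in cKO and 2.82 ± 0.230 in WT. The other 6 genes kept their rank in all 12 libraries. The order rests on the length used, since the 3′ UTRs run from 169 bases in Drosha to 12742 bases in Ago3. Per kilobase of coding sequence Ago2 came first, at 64.7 in cKO, and Ago1 next, at 43.2.

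**Figure D3:**
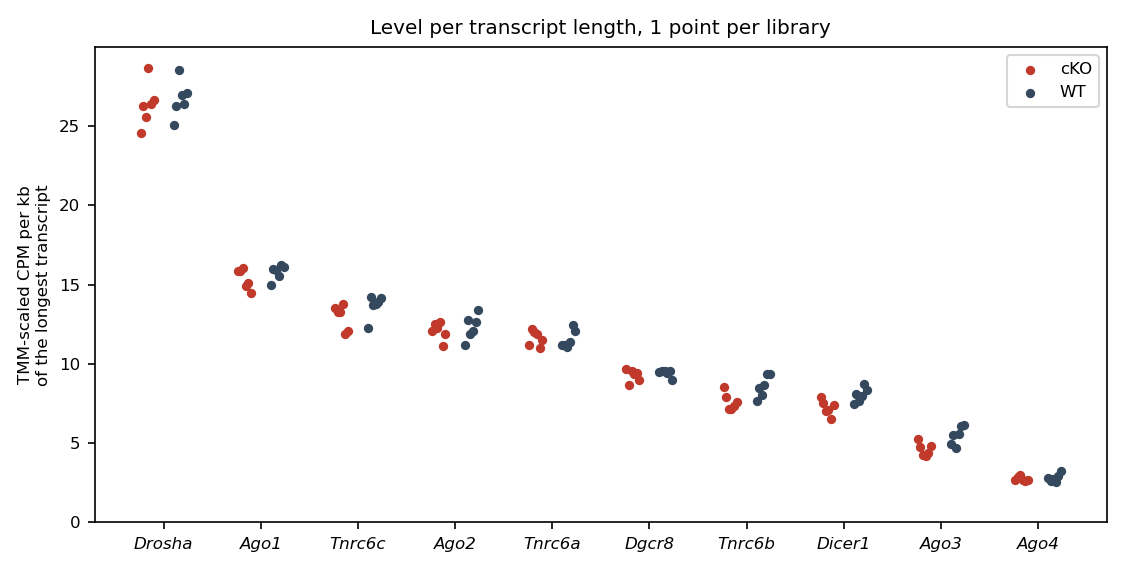
Level per kilobase of longest transcript (CPM per kb) of the 10 genes in every library, cKO left of WT, ordered by mean. Drosha is highest and Ago4 lowest in every library.

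Within the Argonaute family, Ago1 made up 44.2 ± 1.07% of the summed level per length in cKO and 43.4 ± 1.25% in WT, and Ago2 34.8 ± 1.15% in cKO and 33.8 ± 0.610% in WT (SD, n = 6 each). Ago3 made up 13.2 ± 1.08% in cKO and 15.03 ± 1.01% in WT, with ranges that overlapped, and Ago4 7.88 ± 0.319% in cKO and 7.73 ± 0.506% in WT. Tnrc6b made up 23.6 ± 1.47% of the TNRC6 sum in cKO and 25.4 ± 0.788% in WT, and Tnrc6a 36.2 ± 1.24% in cKO and 34.2 ± 1.06% in WT. These shares rest on the length used. Per kilobase of coding sequence Ago2 stood above Ago1 and Tnrc6b above Tnrc6a, with Ago2 at 45.4% and Ago1 at 30.3% in cKO, against 43.8% and 29.5% in WT, and Tnrc6b at 36.0% and Tnrc6a at 24.9% in cKO, against 38.2% and 23.2% in WT. Ago3 stood at 19.5% in cKO and 21.97% in WT on that scale. Per kilobase of longest transcript, the summed TNRC6 level over the summed Argonaute level was 0.926 ± 0.016 in cKO and 0.929 ± 0.013 in WT, and per kilobase of coding sequence 0.473 ± 0.0065 in cKO and 0.477 ± 0.0076 in WT. The summed levels averaged slightly lower in cKO, and their ranges overlapped. Per kilobase of longest transcript, the Argonaute sum was 34.8 ± 1.15 CPM in cKO and 36.4 ± 1.83 in WT, and the TNRC6 sum 32.2 ± 1.25 in cKO and 33.8 ± 1.74 in WT.

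Ago3, Tnrc6b and Dicer1 varied together across animals. Over deviations from the genotype means in the 12 libraries, Ago3 and Tnrc6b had a Pearson r of 0.947 and a Spearman rho of 0.965. Within cKO the r was 0.958, and within WT 0.940. Dicer1 followed Tnrc6b with r = 0.866 and Ago3 with r = 0.844. Of the 45 pairs among the 10 genes 33 were positive, with a median r of 0.334 and a lowest r of -0.424, for Dgcr8 and Tnrc6a. These are descriptions over libraries that share their depth and composition. Ago2 and Tnrc6c had r = 0.845, but 0.560 without the 2 libraries farthest from the median.

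The same libraries differed in other measures. Gene models that GENCODE marks as awaiting experimental testing took 0.264 ± 0.008% of counts in cKO and 0.284 ± 0.017% in WT (SD, n = 6 each). Over the 12 libraries the r of this share was 0.843 with Ago3, 0.835 with Dicer1 and 0.879 with Tnrc6b (rho 0.839, 0.853 and 0.909). Without the 2 libraries farthest from the median the r were 0.857, 0.819 and 0.921, and for Ago3 the r was 0.964 within cKO and 0.662 within WT. The mitochondrial share, 7.62 ± 0.276% in cKO and 7.44 ± 0.422% in WT, had an r of -0.762 with Ago3, -0.670 within cKO and -0.918 within WT. All 6 smooth muscle markers were higher in cKO at an unadjusted p under 0.05, against 3.2% of all genes, with 0 called, against 0.0103%, and a smallest edgeR adjusted p of 0.115, and their sum was 111 ± 19.6 CPM in cKO and 62.2 ± 14.2 CPM in WT. It ran from 86.8 to 135 CPM in cKO and from 48.0 to 83.4 CPM in WT, without overlap, and its r with Ago3 was -0.739 over all libraries, -0.898 within cKO and 0.130 within WT. With Tnrc6b the r was -0.774 over all libraries, -0.893 within cKO and -0.118 within WT. With the share of untested models as a covariate, the log2 fold changes were -0.10 ± 0.07 for Ago3, -0.06 ± 0.05 for Dicer1 and -0.05 ± 0.05 for Tnrc6b (SE). With the mitochondrial share they were -0.19 ± 0.05, -0.12 ± 0.04 and -0.13 ± 0.04. With the smooth muscle sum they were -0.14 ± 0.14, -0.07 ± 0.09 and -0.04 ± 0.10, and that sum cannot be told apart from genotype because the groups do not overlap in it. All 6 excitatory neuron markers had log2 fold changes below 0, against 46.6% of all genes, with a sum of 6961 ± 344 CPM in cKO and 7250 ± 285 CPM in WT. Of these, 1 had an edgeR unadjusted p under 0.05 and 0 were called. Signs were 1-sided in other lists too. All 6 oligodendrocyte markers were below 0. All 6 markers each of interneurons, endothelium, choroid plexus and meningeal fibroblasts, and all 5 of blood, were above 0. The part of neuron content in the differences of Ago3, Dicer1 and Tnrc6b was not tested.

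**Figure D4:**
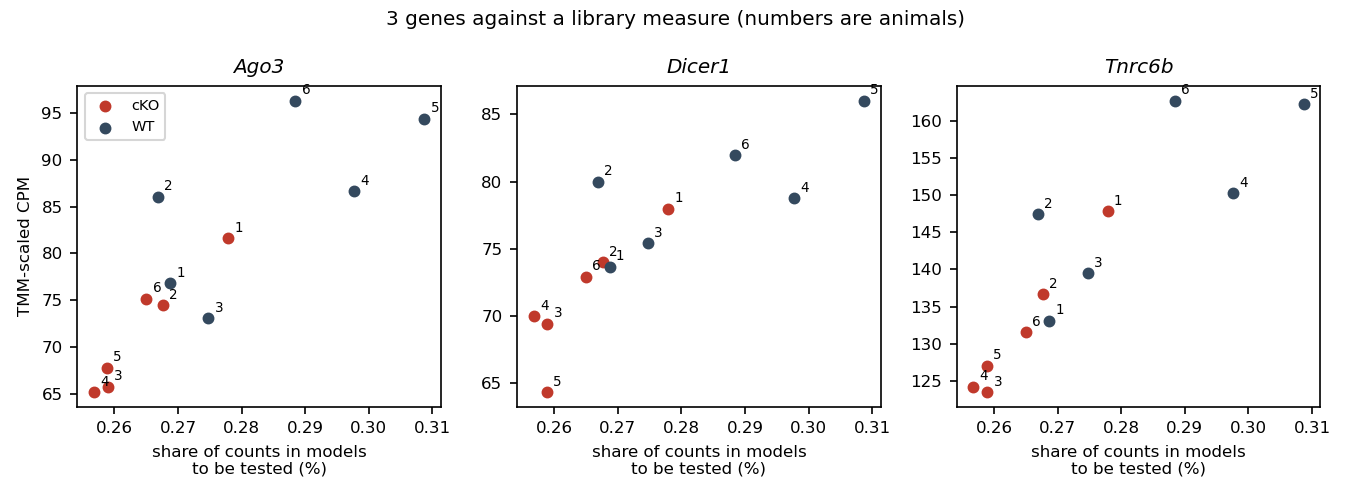
Level of Ago3, Dicer1 and Tnrc6b (CPM) in each of the 12 libraries against the share of its counts in gene models awaiting testing (%), with cKO and WT in different colours and animal numbers beside the points. Levels are higher where the share is larger, and the cKO points sit mostly at the low end of both axes.

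Ago3 and Tnrc6b have the longest 3′ UTRs of the 10. Across the 10 genes, Spearman's rho between the log2 fold change and the length of the 3′ UTR was -0.782, as a description. Over 15274 tested genes with a 3′ UTR the same rho was -0.202, and of 145 genes with a 3′ UTR of at least 8000 bases 121 had a log2 fold change below 0, with a median of -0.10. Ago3 (12742 bases) and Tnrc6b (11609 bases) belong to that class, as does Ago2 (11064 bases), which was at -0.03.

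Sequences that the cluster's miRNAs could pair with were then looked up in the 10 messages. The cluster spans chr12:109709060-109743795 (GRCm38), and the RefSeq entries used here hold 69 mature miRNAs there. For some miRNA genes they hold only 1 arm, as for Mir485 with miR-485-3p alone, so the other arms were not searched. The 69 have 63 different seeds. Matches to any of these seeds, on the message strand, were found in the 3′ UTRs of 9 of the 10 genes, where 89.3% of genes with a 3′ UTR hold one. The miRNAs with a match in all of Ago3, Dicer1 and Tnrc6b numbered 8, and they are printed with the seed in capitals because they are the ones those messages share.
miR-134-5p: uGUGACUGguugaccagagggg
miR-495-3p: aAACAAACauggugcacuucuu
miR-543-3p: aAACAUUCgcggugcacuucuu
miR-154-5p: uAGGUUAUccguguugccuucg
miR-539-5p: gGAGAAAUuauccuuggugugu
miR-300-5p: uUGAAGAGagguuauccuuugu
miR-667-5p: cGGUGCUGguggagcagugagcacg
miR-679-5p: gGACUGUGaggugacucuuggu
The 8 have different seeds. Of the 100 3′ UTRs nearest in length to that of Ago3, 42 to 79 hold a match to each of the 8. For Dicer1 the range was 19 to 58, and for Tnrc6b 39 to 79. How many miRNAs other sets of 3 genes of like length share was not counted. The letters that pair with the seed of miR-134-5p, a miRNA studied for its role in dendritic spines, are CAGTCAC, and 12.01% of all 3′ UTRs hold them. Of 100 3′ UTRs nearest in length, 55, 28 and 56 hold them for Ago3, Dicer1 and Tnrc6b. The matches are shown here in capitals on the message strand, with the position of the capitals in GRCm38.
Ago3, chr4:126341709-126341715, minus strand: cgagatctCAGTCACaggcggtg
Ago3, chr4:126333896-126333902, minus strand: atccaggcCAGTCACggccatgg
Dicer1, chr12:104688585-104688591, minus strand: cccgtgtaCAGTCACcagcagcc
Tnrc6b, chr15:80933601-80933607, plus strand: atgtggtcCAGTCACtccacggt
The letters for miR-495-3p, GTTTGTT, are in 24.0% of all 3′ UTRs and in 7 of the 10 genes, with 18 matches. Ago3 holds them 6 times, Dicer1 4 times and Tnrc6b 3 times. Of the 100 3′ UTRs nearest in length, 79, 58 and 79 hold at least 1 for Ago3, Dicer1 and Tnrc6b. How many of those hold several was not counted. Only the Dicer1 matches are shown.
Dicer1, chr12:104691330-104691336, minus strand: atcctggtGTTTGTTagcaaggt
Dicer1, chr12:104691284-104691290, minus strand: ttggttttGTTTGTTttgacatt
Dicer1, chr12:104689746-104689752, minus strand: gaggtggaGTTTGTTgtcttatc
Dicer1, chr12:104689309-104689315, minus strand: aggagtgcGTTTGTTtgtgttgg
These genes and miRNAs were picked after the levels were known, and a match is a run of letters, not a binding site.

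Counted over all 63 seeds, the number of matches followed 3′ UTR length. Ago3 had 63 matches, more than 93 of the 100 3′ UTRs nearest in length, whose median was 43.5. Those 100 ran from 8666 to 18619 bases, so they match its 12742 bases only loosely. Per kilobase, Ago3 had more matches than 69.8% of tested genes with a 3′ UTR, Tnrc6a more than 83.1% and Tnrc6b more than 45.2%. Tnrc6a had 14, more than 91 of its 100, whose median was 9. Tnrc6b had 43 (median 42.5), Ago2 37 (median 42), Ago1 19 (median 18.5), Dicer1 17 (median 17) and Ago4 16 (median 17). Tnrc6c had 10 (median 11), Dgcr8 7 (median 6) and Drosha, with the shortest 3′ UTR, 0. The 3 genes with most matches, Ago3, Tnrc6b and Ago2, had log2 fold changes of -0.25, -0.18 and -0.03. Over all genes with a 3′ UTR, the medians were 0.01 for those with a match and 0.03 for those without.

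The wider pathway did not pass the test either. Of 76 genes in 6 lists, 75 were tested, and edgeR called 0 of them, against 0.0103% of all genes. At an unadjusted p under 0.05, 4 were higher, against 3.2% of all genes, and 5 were lower, against 6.34%, shares near those of all genes. Their median log2 fold change was -0.003, and 36 were above 0 and 39 below. The smallest edgeR adjusted p was 0.407, at Dcp2, the decapping enzyme, with 70.9 ± 2.97 CPM in cKO and 76.6 ± 3.94 CPM in WT.

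Among upstream steps, 0 of 13 Microprocessor cofactors, 0 of 6 export and Dicer partners and 0 of 9 genes of Argonaute loading and import had an unadjusted p under 0.05, against 9.54% of all genes. Lists of this size would hold about 1 or fewer at that share. Ddx17, an RNA helicase that binds Drosha, had 435 ± 3.04 CPM in cKO and 449 ± 10.02 CPM in WT (log2 fold change -0.05 ± 0.02, SE; edgeR adjusted p = 0.588). Xpo5, which exports hairpins, had 66.3 ± 1.39 CPM in cKO and 66.1 ± 2.19 CPM in WT, and Tarbp2, a Dicer partner, had a log2 fold change of 0.04 ± 0.05 (SE). Among 8 tested genes of precursor tailing and decay, 1 had an unadjusted p under 0.05. This was Tut4, which adds uridines to let-7 precursors, with 30.3 ± 1.81 CPM in cKO and 33.1 ± 2.70 CPM in WT (-0.13 ± 0.06; edgeR adjusted p = 0.505).

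Downstream, 28 deadenylation and decapping genes split evenly, with 14 above 0 and 14 below, and a median log2 fold change of 0.003. Cnot1, the scaffold of the CCR4-NOT deadenylase that TNRC6 proteins recruit, had 119 ± 9.64 CPM in cKO and 130 ± 7.01 CPM in WT (log2 fold change -0.13 ± 0.05, SE; edgeR adjusted p = 0.454). Xrn1, the exonuclease that degrades decapped messages, had 45.1 ± 5.17 CPM in cKO and 50.1 ± 3.12 CPM in WT (-0.15 ± 0.07). Cnot9, a CCR4-NOT subunit that binds TNRC6, stood the other way, with 27.4 ± 1.498 CPM in cKO and 25.3 ± 0.957 CPM in WT (0.11 ± 0.04). Of 11 Argonaute cofactors, the LIM proteins Wtip and Ajuba had the highest log2 fold changes, 0.25 ± 0.09 and 0.39 ± 0.18 (SE), both at low levels: 3.85 ± 0.657 CPM in cKO and 2.93 ± 0.826 CPM in WT for Ajuba. Mov10, an RNA helicase that binds Argonaute, had 20.4 ± 1.36 CPM in cKO and 18.6 ± 1.85 CPM in WT.

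Primary transcripts of other brain miRNAs were not called. Mir124a-1hg, host of the neuronal miR-124, had 250 ± 24.2 CPM in cKO and 244 ± 14.1 CPM in WT (edgeR adjusted p = 0.907), and the other 5 of 6 host transcripts tested outside the targeted cluster had log2 fold changes below 0. Mirg, which overlaps the targeted cluster, was at 0.15 ± 0.12 (log2 fold change, SE). Of 5 genes of the germline PIWI pathway, 2 were tested. Piwil2, of the PIWI clade itself, had 1.40 ± 0.230 CPM in cKO and 1.39 ± 0.121 CPM in WT. Ddx4, a helicase outside that clade, had 3.98 ± 0.963 CPM in cKO and 3.98 ± 0.777 CPM in WT.

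**Figure D5:**
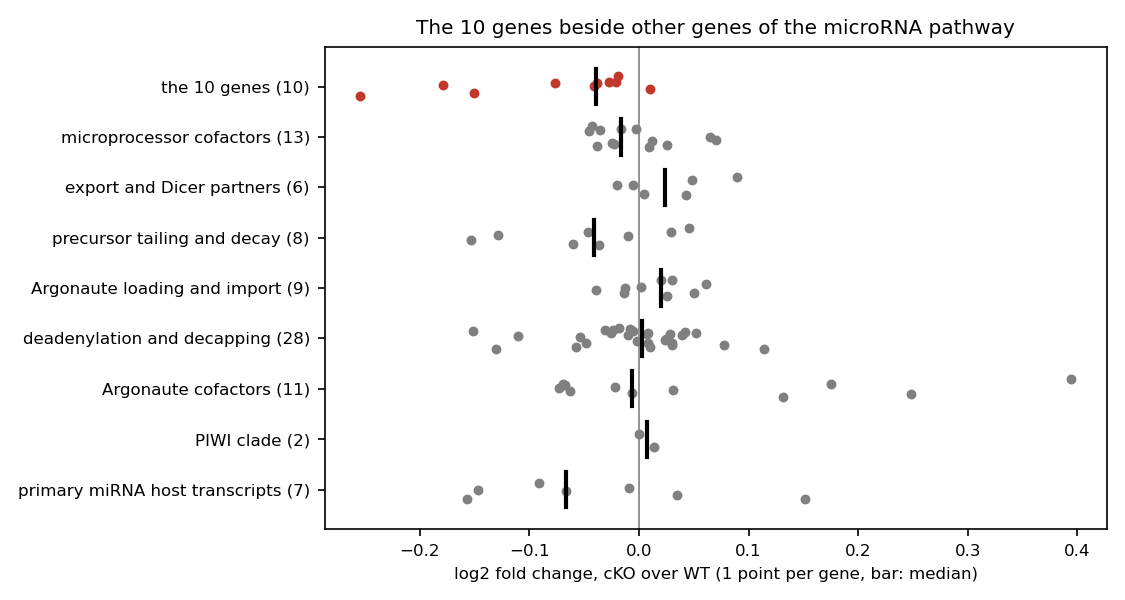
Log2 fold change, cKO over WT, of every tested gene in the lists of the miRNA pathway, grouped by step, each point a gene and each bar a list's median. Points lie on both sides of 0 in the 6 pathway lists, and 0 genes passed the edgeR threshold.

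Outside the lists, the genes whose level over the 12 libraries was most like the mean of the 10 were Trrap (r = 0.940), Neo1 (r = 0.939), Ep400 (r = 0.932), Arhgap21 (r = 0.930) and Ankrd11 (r = 0.928), of 12016 candidates with at least 5 CPM. Trrap and Ep400 encode large chromatin complex subunits and Neo1 a netrin receptor. Their log2 fold changes ran from -0.13 at Trrap to -0.09 at Neo1 and Ankrd11, and none passed.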

How the data were processed

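Per the labels, hippocampal RNA was isolated by Trizol-chloroform extraction before NEB Next Ultra library preparation. The authors deposited estimated counts (expected counts) per gene symbol, 1 column per mouse, unscaled, made with Salmon 1.3.0 and GRCm38 per the submitters' processing notes. Neither the annotation nor the strand setting is stated in the sources used here. Non-whole values made up 24.8% to 25.9% of each library, and all values were rounded. GENCODE supplied coordinates for 32940 of 33250 symbols.

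Genotypes were compared with edgeR 4.0.16 (R 4.3.3), TMM scaling, filterByExpr by genotype (count minimum 10, total 15), genotype alone in the model, and Benjamini-Hochberg adjustment over 19325 genes at 0.05. Alternatives used DESeq2 1.42.0, limma 3.58.1 (limma-voom), other scaling and filters, each animal left out, and covariates. The covariates and the coding-length family shares were chosen after seeing the data. The steps were tested on simulated data. The members and lists were chosen with earlier results of these data known, and named list genes were up to 3 per direction with the smallest p; B830012L14Rik, Xpo5 and the printed sites were chosen after their values were seen. The p-values measure the spread between mice, and the labels do not say whether any shared a litter.

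Seed matches (bases 2 to 8) were counted in each gene's longest GENCODE 3′ UTR, if 50 bases or longer. Mature miRNA sequences were from RefSeq (GRCm38.p6). Because the strand setting is not stated, it is not known whether reads from overlapping opposite-strand genes were separated. Counts of 723 or more per library lie behind every one of the 10 genes.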

Additional observations from a re-analysis of the deposited data

Results flagged for a closer look

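Among the 20 groups of 6 libraries (10 genes in each genotype), 2 held a library that stood apart from the others by Dixon's criterion, where chance gives about 1 in 20. For Dgcr8 it was the library WT 6, at 38.85 CPM, with a gap of 0.690 of the group's range to its neighbour. For Tnrc6c it was WT 1, at 141.9 CPM, with a gap of 0.743 of the range. Without WT 1, Tnrc6c had a log2 fold change of -0.11 and joined Ago3, Dicer1 and Tnrc6b among the genes with an unadjusted edgeR p under 0.05.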

How the results depend on the processing

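In every alternative run, 0 of the 10 genes were called. Ago3, Dicer1 and Tnrc6b kept a log2 fold change below 0 throughout, with an unadjusted p under 0.05 in all but the fits with the untested-model share or the smooth muscle sum as covariate. Leaving out each animal gave -0.30 to -0.22 for Ago3, -0.19 to -0.13 for Dicer1 and -0.22 to -0.15 for Tnrc6b, and -0.064 to -0.031 for the median of the 10. Over all genes, 1 was called with no low-count filter, 76 with DESeq2, 0 with limma-voom and 0 without WT 2, WT 3 and cKO 4. Leaving out each animal gave 0 to 6, with 6 without cKO 1, and each covariate gave 0. With the replicate block 0 genes were called and the smallest adjusted p among the 10 was 0.483. Over all alternatives the smallest was 0.0939, at Ago3 with DESeq2. Without WT 1 the smallest edgeR adjusted p was 0.0955, at Tnrc6b. Same-numbered animals correlated by -0.40 to 0.46, and 0 of 6 correlated best with their own number. These correlations show no pairing by number but cannot exclude it, and the labels do not say whether the numbers pair animals.

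Tnrc6a was at -0.022 without WT 2, WT 3 and cKO 4, at -0.0023 with the smooth muscle sum and between -0.012 and 0.033 with each animal left out; Ago2 was at 0.0068 with the untested-model share. The cause was not tested. Per kilobase of all annotated exons, cKO levels were 20.3 (Drosha), 5.21 (Dgcr8), 4.27 (Dicer1), 13.7 (Ago1), 2.58 (Ago4), 7.498 (Tnrc6a), 5.57 (Tnrc6b) and 11.7 (Tnrc6c). Per kilobase of coding sequence they were 29.2 (Drosha), 17.3 (Dgcr8), 12.5 (Dicer1), 43.2 (Ago1), 64.7 (Ago2), 27.8 (Ago3), 6.94 (Ago4), 16.8 (Tnrc6a), 24.3 (Tnrc6b) and 26.4 (Tnrc6c). Family shares in cKO by all exons were 42.1% for Ago1, 36.6% for Ago2, 30.3% for Tnrc6a and 47.2% for Tnrc6c. By coding length, an alternative added after seeing the data, they were 30.3% for Ago1, 45.4% for Ago2, 19.5% for Ago3, 4.87% for Ago4, 24.9% for Tnrc6a and 36.0% for Tnrc6b.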
